A study of Drosophila melanogaster with 15 samples.

Results

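The 10 genes described here encode the engulfment receptor Draper and the proteins that act with it inside the glial cell: *drpr* and its relative *NimA*, the adaptor gene *ced-6*, the kinase genes *Shark* and *Src42A*, the genes *Crk*, *mbc* and *Ced-12* of a Rac-activating module, and the GTPase genes *Rac1* and *Rac2*. They were taken by FlyBase symbol and identifier, not by their measured values, from a table of 17509 genes. All 10 were listed in the table, and all 10 passed the filter of 1 TPM in at least 5 samples, which 8101 genes passed. *NimA* passed it through injured samples alone, since no uninjured sample reached 1 TPM. TPM (transcript abundance scaled to the same total in each sample) is corrected for gene length, so that levels can be compared between genes within a sample. Between samples, TPM also depends on what else fills that total, such as the mitochondrial transcripts described below.

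The table held 15 samples of *Drosophila* astrocytes in 3 groups of 5: astrocytes from uninjured brains, from brains taken 4 hr after traumatic brain injury (TBI), and from brains taken 24 hr after TBI. Every fly, uninjured ones included, carried *R86E01-Gal4* and *UAS-Redstinger*, a red nuclear fluorescent protein made wherever this astrocyte driver is active. Flies were collected 3 days after eclosion and then injured, so that 24 hr brains came from older flies than 4 hr brains. The same uninjured group served both times. TBI was given to whole flies with a high-impact trauma (HIT) device, in which a spring throws the vial against a pad. The study used 6 strikes 5 min apart, and in its mortality assay most flies were dead 24 hr after that dose. About 50 brains were dissociated for a group and 1600 red cells were sorted per sample, so that each value is an average over pooled animals and covers only cells in which the driver is on.

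Draper is a transmembrane receptor with EGF-like repeats, the fly counterpart of CED-1 of the worm, and recognises dying cells, severed axons and pruned neurites. Src42A phosphorylates its cytoplasmic tail, the kinase Shark then docks there, and the adaptor Ced-6 binds to a separate motif. Crk, Mbc and Ced-12 activate Rac GTPases, which drive the actin rearrangement that closes the phagocytic cup. In the adult fly brain this pathway is best known from ensheathing glia after axotomy, and in astrocytes from neurite pruning during metamorphosis.

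The sorted samples carried the markers of their label: *alrm*, an astrocyte-specific gene, was present at 13609 TPM or more in every sample. Of 3 ensheathing glia markers, *Eaat2* and *CG6126* reached at most 52.4 and 1.50 TPM and *CG9657* was between 136 and 643 TPM, and their sum was 141 to 505 TPM at 4 hr and 313 to 696 TPM at 24 hr, against 185 to 290 TPM in uninjured samples. The hemocyte genes *NimC1*, *eater* and *He* were at or near 0 in every sample, with a highest value of 0.10 TPM, and *Hml* reached at most 0.50 TPM. *Col4a1* was at 1.18 to 33.0 TPM at 4 hr and 4.22 to 77.2 TPM at 24 hr, against 1.29 to 7.14 TPM in uninjured samples. *Pxn* reached 0.84 TPM at 4 hr and 2.19 TPM at 24 hr, against 0.19 TPM in uninjured samples. *srp* reached 1.14 TPM at 4 hr and 0.37 TPM at 24 hr, against 0 in uninjured samples. The sum of the 8 hemocyte markers was 113 to 254 TPM at 4 hr and 113 to 249 TPM at 24 hr, against 69.4 to 157 TPM in uninjured samples, and most of it was *crq*, a scavenger receptor gene. The 13 neuronal markers summed to 179 to 234 TPM at 4 hr and 97.8 to 274 TPM at 24 hr, against 87.2 to 142 TPM in uninjured samples. The surface glia markers summed to 47.5 to 149 TPM at 4 hr and 46.7 to 137 TPM at 24 hr, against 36.1 to 56.0 TPM in uninjured samples. Fat body markers summed to 1.79 to 3.91 TPM at 4 hr and 0 to 1.67 TPM at 24 hr, against 0 to 0.05 TPM in uninjured samples, and muscle markers to 0.42 to 9.83 TPM at 4 hr and 0.31 to 4.24 TPM at 24 hr, against 0 to 1.76 TPM in uninjured samples. Transcripts of the mitochondrial genome took 11.5% to 43.2% of TPM at 4 hr and 15.2% to 37.2% at 24 hr, against 32.7% to 51.8% in uninjured samples. At both times replicates 1 to 3 lay below the uninjured range and replicates 4 and 5 within it. The summed TPM of 4 cortex glia markers was also higher in replicates 1 to 3 than in replicates 4 and 5 at both times. It was 1091 to 2095 in replicates 1 to 3 and 434 and 496 in replicates 4 and 5 at 4 hr, and 1481 to 2866 in replicates 1 to 3 and 906 and 837 in replicates 4 and 5 at 24 hr, against 379 to 898 in uninjured samples. Some other sums divided likewise, given here as replicates 1 to 3 against replicates 4 and 5. Ensheathing glia markers were at 213 to 505 against 149 and 141 at 4 hr, and 549 to 696 against 313 and 344 at 24 hr. Surface glia markers were at 88.0 to 149 against 50.7 and 47.5 at 4 hr, and 100 to 137 against 52.1 and 46.7 at 24 hr. Astrocyte markers were at 61674 to 75122 against 53867 and 57454 at 4 hr, and 70428 to 84423 against 62326 and 62894 at 24 hr. The part of these differences in the results below was not tested.

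In uninjured astrocytes the 10 genes spanned almost the whole range of expression. *mbc* and *ced-6* were the most abundant, at 453 ± 84.0 and 269 ± 51.3 TPM, and ranked 174th and 286th of the 8101 genes. *Rac1* followed at 151 ± 46.1 TPM and *Crk* at 111 ± 20.2 TPM. *drpr* itself was at 61.3 ± 12.9 TPM, rank 1251, and *Rac2* at 35.2 ± 6.09 TPM. *Src42A* at 19.8 ± 7.81 TPM, *Ced-12* at 14.5 ± 1.52 TPM and *Shark* at 4.63 ± 2.07 TPM were lower, and *NimA* was listed at 0 in 4 of 5 samples and at 0.04 TPM in the other (mean ± SD, n = 5 each). The ranges of neighbours in this order overlapped for *ced-6* and *Rac1*, *Rac1* and *Crk*, *Rac2* and *Src42A*, and *Src42A* and *Ced-12*. They were apart for the other neighbours, and every uninjured sample had more *mbc*, *ced-6*, *Rac1* and *Crk* than *drpr* per unit length.

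The first comparison asked which of these genes differed 4 hr after TBI. *drpr*, the receptor, and *Rac2*, a GTPase at the end of the pathway, were called up, and none of the 10 was called down. *mbc* had every 4 hr sample below every uninjured one, and was called down only under other scalings. A gene was called differentially expressed if its log2 fold change (log2FC) was at least 1 in size with an adjusted p below 0.01, from limma on log2(TPM + 1) and Benjamini-Hochberg adjustment over all 8101 genes. 2 of the 10 genes were called up, against 5.76% of all genes, and 0 down, against 0.222%, or 5.99% in either direction. The study had already reported *drpr* as raised, so this count is not independent of these data. 6 of the 10 had an unadjusted p under 0.05, against 27.1% of all genes, and *NimA*, which passed the filter through injured samples alone, is among the 6. The median log2FC of the 10 was 0.47 and that of all genes 0.31, and 8 of 10 values were above 0, against 71.1% of all genes.

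*drpr* (FBgn0027594, dm6 chromosome 3L from 1715595 to 1731107, minus strand) had 279, 255, 184, 169 and 169 TPM at 4 hr, against 50.2, 55.8, 83.4, 60.2 and 56.8 TPM in uninjured astrocytes. The lowest 4 hr sample was far above the highest uninjured one, and the groups did not overlap. The means were 211 ± 52.2 and 61.3 ± 12.9 TPM, a ratio of 3.45, and the log2FC was 1.76 ± 0.23 (SE; limma adjusted p = 4.24e-05). Of all genes tested, 96.0% had a lower log2FC. The 4 hr samples divided into replicates 1 and 2, the highest, and replicates 3 to 5, and the same replicates 1 and 2 had the lowest mitochondrial shares of the group. In replicates 4 and 5, whose mitochondrial shares and cortex glia sums were within the uninjured ranges, *drpr* stood at 169 and 169 TPM, above every uninjured sample. With only the samples in the uninjured mitochondrial range, a choice made after seeing the data, the log2FC was 1.47 (limma adjusted p = 0.00420). This setting, here and below, keeps 2 samples at each time after injury and all 5 uninjured ones. Here as for every gene below, more transcript per astrocyte and a larger share of cells that express the gene cannot be told apart in pooled cells.

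*NimA*, the other receptor gene (FBgn0261514, chromosome 2L from 13957539 to 13963381, plus strand), belongs to the Nimrod family, as does *drpr*, and encodes a transmembrane protein with an EMI domain. It had 4.20, 0.10, 1.24, 3.34 and 0.04 TPM at 4 hr, against 0.04, 0, 0, 0 and 0 TPM in uninjured astrocytes. 4 of the 4 hr samples were above every uninjured one and the fifth was level with the highest. The log2FC was 1.16 ± 0.45 (SE) and did not pass the test (limma adjusted p = 0.10). At such low values the size of the fold change rests on the pseudocount, and was 3.05 with 0.1 in place of 1.

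The adaptor gene *ced-6* (chromosome 2R from 9434669 to 9444937) encodes a protein with a phosphotyrosine-binding domain. It was at 278 ± 74.2 TPM at 4 hr and 269 ± 51.3 TPM in uninjured astrocytes (SD, n = 5 each), with 190 to 352 and 215 to 331 TPM. The ranges overlapped almost entirely and the log2FC was 0.03 ± 0.21 (SE; limma adjusted p = 0.95), and it was below 0 with size factors, with quantile normalization, without the mitochondrial genome and when the mitochondrial share entered as a covariate. Set against *drpr* within a sample, *ced-6* was lower in every 4 hr sample, at a TPM ratio of 1.13 to 1.61 at 4 hr, against 3.71 to 6.59 in uninjured astrocytes. This ratio was chosen after the values were seen and is given without a test.

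Both kinase genes had higher means at 4 hr and neither passed the test. *Shark* (chromosome 2R from 16199426 to 16202884), the kinase that binds the phosphorylated tail of Draper, had 10.5, 11.1, 7.86, 3.62 and 3.15 TPM at 4 hr, against 3.49, 3.43, 8.11, 4.95 and 3.15 TPM in uninjured astrocytes. Replicates 1 and 2 alone were above the uninjured range, and replicates 4 and 5 were inside it (log2FC 0.48 ± 0.45, SE; limma adjusted p = 0.53). *Src42A* (chromosome 2R from 5981844 to 6012795), which phosphorylates Draper, was at 26.7 ± 5.80 TPM at 4 hr and 19.8 ± 7.81 TPM in uninjured astrocytes (SD, n = 5 each; log2FC 0.47 ± 0.28, SE; limma adjusted p = 0.30). With the mitochondrial share as a covariate the 4 hr log2FC was -0.53 for *Shark* and 0.03 for *Src42A*.

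The 3 genes of the Rac-activating module did not share a direction at 4 hr, and none passed the test with TPM as deposited. *mbc* (chromosome 3R from 23781765 to 23801634), the fly Dock180 gene and an exchange factor for Rac, had 199, 289, 274, 299 and 237 TPM at 4 hr, against 404, 445, 351, 494 and 570 TPM in uninjured astrocytes. All 5 samples at 4 hr were below all uninjured ones, as held for 0.839% of all genes. The log2FC was -0.80 ± 0.20 (SE) and met neither threshold (limma adjusted p = 0.013). It was called down at -1.14 with size factors, which centre each sample on its median gene (limma adjusted p = 0.0068), at -1.15 with quantile normalization (limma adjusted p = 0.0032) and at -1.14 with the mitochondrial genome removed (limma adjusted p = 0.0092). With the mitochondrial share as a covariate it was -0.54 (limma adjusted p = 0.12).

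*Crk* (chromosome 4 from 210224 to 213165), an adaptor with SH2 and SH3 domains, had 41.5, 68.0, 64.0, 115 and 77.7 TPM at 4 hr, against 89.7, 112, 99.9, 111 and 143 TPM in uninjured astrocytes. All 4 hr samples but replicate 4 were below the uninjured range (log2FC -0.65 ± 0.27, SE; limma adjusted p = 0.12). With the mitochondrial share as a covariate the 4 hr log2FC of *Crk* was -0.18 (limma adjusted p = 0.74). Its 4 hr means were 57.85 TPM in the replicates with a mitochondrial share below the uninjured range and 96.3 TPM in those within it, against 111 TPM in uninjured astrocytes. *Ced-12* (chromosome 2L from 12097838 to 12100839), the fly ELMO gene, whose product binds Mbc, had 32.2, 30.1, 30.8, 17.1 and 18.1 TPM at 4 hr, against 14.7, 16.4, 14.5, 12.2 and 14.8 TPM in uninjured astrocytes. Every 4 hr sample was above every uninjured one, replicates 4 and 5 by little (log2FC 0.74 ± 0.27, SE; limma adjusted p = 0.079). The 4 hr means of *Ced-12* were 31.05 TPM in the replicates with a mitochondrial share below the uninjured range and 17.6 TPM in those within it, against 14.5 TPM in uninjured astrocytes. The *mbc* to *Ced-12* ratio was 6.18 to 17.5 at 4 hr and 24.2 to 40.6 in uninjured astrocytes, which does not depend on how samples are scaled. It was chosen after the values were seen and was not tested.

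*Rac2* (chromosome 3L from 7432762 to 7435190, minus strand) had 89.6, 73.6, 80.9, 58.9 and 74.3 TPM at 4 hr, against 33.6, 38.2, 43.1, 26.6 and 34.5 TPM in uninjured astrocytes. The groups did not overlap, and the means of 75.5 ± 11.3 and 35.2 ± 6.09 TPM gave a ratio of 2.14. The log2FC was 1.08 ± 0.18 (SE; limma adjusted p = 0.000485), close to the size required, and it was 0.75 with size factors, 0.73 with quantile normalization, 0.75 with the mitochondrial genome removed, 0.91 in the samples of uninjured mitochondrial range and 0.99 without uninjured replicate 4, settings in which it was not called. In all, 3 of the 10 genes (*drpr*, *Rac2* and *Ced-12*) had every 4 hr sample above every uninjured one, against 8.68% of all genes. After size factors the split of called genes among the 10 was 1 up and 1 down in place of 2 and 0, and that of all genes 328 up and 73 down in place of 467 and 18.

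*Rac1* (chromosome 3L from 1300879 to 1302683, minus strand), the closest paralog of *Rac2*, had 244, 226, 173, 139 and 169 TPM at 4 hr, against 138, 140, 231, 120 and 124 TPM in uninjured astrocytes. The ranges overlapped (log2FC 0.35 ± 0.21, SE; limma adjusted p = 0.29). The ratio of *Rac1* to *Rac2* within a sample, which no scaling can move, was 2.51 ± 0.378 at 4 hr and 4.25 ± 0.728 in uninjured astrocytes (SD, n = 5 each), and all 5 samples at 4 hr were below all uninjured ones. The difference in log2 ratio was -0.75 (two-sided exact permutation p = 0.0079, the smallest that 5 against 5 samples allow, and 0.012 adjusted over the 3 comparisons of this ratio). *Rac2* made up 23.8% ± 2.25 of the summed TPM of *Rac1*, *Rac2* and *Mtl*, the 3 Rac genes of the fly, at 4 hr and 14.6% ± 1.42 in uninjured astrocytes (SD, n = 5 each). The coding sequences of these paralogs are alike, and reads shared between them may have been assigned to either.

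**Figure D1:**
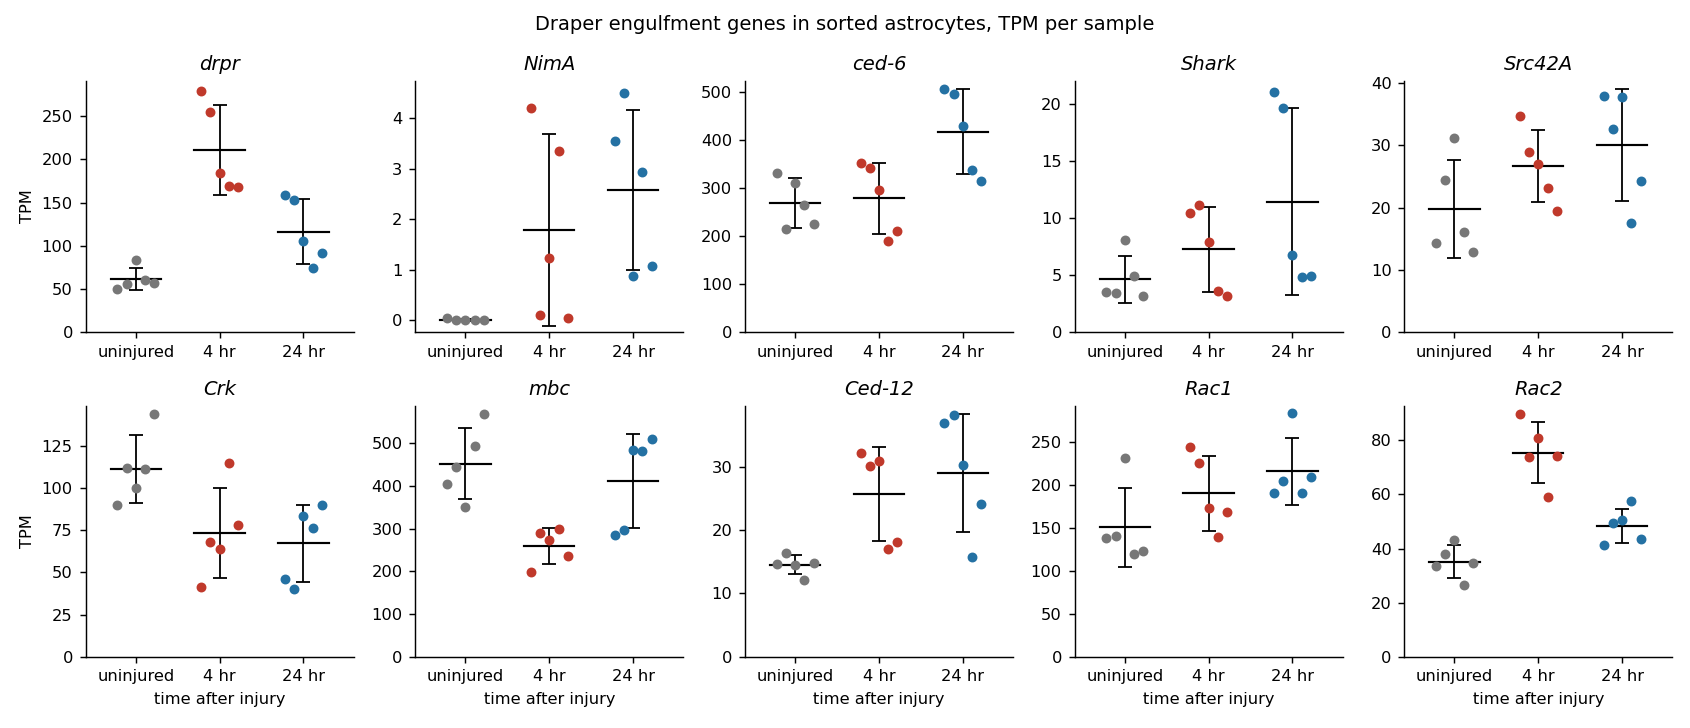
TPM of each of the 10 genes (vertical axes, starting at 0 or, for *NimA*, just below it to hold the error bar) in every sample of astrocytes from uninjured brains and at 4 hr and 24 hr after TBI. Points are samples in the order of replicates 1 to 5, the horizontal line is the mean and the bar is ± SD (n = 5); *drpr* was highest at 4 hr with 169 to 279 TPM, *Rac2* with 58.9 to 89.6 TPM, and *mbc* was lowest there with 199 to 299 TPM.

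The second comparison asked which genes differed 24 hr after TBI. By limma, 0 of the 10 genes were called up or down, against 2.26% of all genes up and 0.0617% down, or 2.32% in either direction. 9 of the 10 had an unadjusted p under 0.05, the exception being *mbc*, against 39.2% of all genes. The 9 include *NimA*, which passed the filter through injured samples alone. The median log2FC of the 10 was 0.61 and that of all genes 0.51, and 8 of 10 values were above 0, against 79.7% of all genes. Among the 10, *NimA* and *drpr* had the lowest adjusted p, in each case at about 0.02.

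*drpr* had 158, 153, 105, 73.8 and 91.4 TPM at 24 hr, against 50.2 to 83.4 TPM in uninjured astrocytes. 4 of 5 samples were above the uninjured range, and replicate 4 was inside it. The mean of 116 ± 37.5 TPM was 1.90 times the uninjured 61.3 ± 12.9 TPM (SD, n = 5 each), and the log2FC was 0.87 ± 0.23 (SE; limma adjusted p = 0.021). *drpr* averaged 139 TPM in 24 hr replicates 1 to 3, of low mitochondrial share, and 82.6 TPM in 24 hr replicates 4 and 5. With size factors the log2FC was 0.38 (limma adjusted p = 0.17).

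*NimA* had 3.55, 4.50, 0.87, 2.93 and 1.07 TPM at 24 hr, against 0.04 TPM in 1 uninjured sample and 0 in the other 4. Every 24 hr sample was above every uninjured one. This was so for 12.5% of all genes and for no other gene of the 10, but *NimA* entered the test only through samples taken after injury, so that its separation and its test are given as a description and not as support for a difference. The log2FC of 1.70 ± 0.45 (SE) met the size required but not the p (limma adjusted p = 0.021), and it was called when the 24 hr and uninjured groups were fitted alone (limma adjusted p = 0.0096). The 24 hr level of 2.58 ± 1.58 TPM (SD, n = 5) was far below that of *drpr*.

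*ced-6* had 506, 496, 429, 337 and 314 TPM at 24 hr, against 331, 215, 310, 263 and 224 TPM in uninjured astrocytes. 4 of the 24 hr samples were above the uninjured range (log2FC 0.62 ± 0.21, SE; limma adjusted p = 0.047). The *ced-6* to *drpr* ratio was 3.20 to 4.57 at 24 hr, which overlapped the uninjured 3.71 to 6.59. *Shark* had 21.1, 19.6, 6.75, 4.82 and 4.96 TPM at 24 hr, against 3.15 to 8.11 TPM in uninjured astrocytes, so that only replicates 1 and 2 stood above (log2FC 0.95 ± 0.45, SE; limma adjusted p = 0.12). *Src42A* was at 30.1 ± 8.93 TPM at 24 hr and 19.8 ± 7.81 TPM in uninjured astrocytes (SD, n = 5 each; limma adjusted p = 0.12).

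In the Rac-activating module *mbc* was at 285, 297, 483, 482 and 509 TPM at 24 hr, against 351 to 570 TPM in uninjured astrocytes. Replicates 1 and 2 were below the uninjured range and the others inside it (log2FC -0.16 ± 0.20, SE; limma adjusted p = 0.56). *Crk* had 45.9, 40.1, 83.5, 76.1 and 90.1 TPM at 24 hr, against 89.7 to 143 TPM in uninjured astrocytes, with every replicate but the fifth below that range (log2FC -0.77 ± 0.27, SE; limma adjusted p = 0.052). *Ced-12* had 36.8, 38.1, 30.3, 15.7 and 24.1 TPM at 24 hr, against 12.2 to 16.4 TPM in uninjured astrocytes, with replicate 4 alone inside that range (log2FC 0.89 ± 0.27, SE; limma adjusted p = 0.032). *Crk* was below the uninjured mean and *Ced-12* above it at both times in their group means. With size factors the 24 hr log2FC was -1.27 for *Crk* (limma adjusted p = 0.033) and 0.41 for *Ced-12* (limma adjusted p = 0.24). With the mitochondrial share as a covariate these values were -0.22 and 0.34 (limma adjusted p = 0.82 and 0.68). In the samples of uninjured mitochondrial range they were -0.40 and 0.41 (limma adjusted p = 0.51 and 0.59).

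*Rac1* was at 216 ± 38.7 TPM at 24 hr and 151 ± 46.1 TPM in uninjured astrocytes (SD, n = 5 each; log2FC 0.54 ± 0.21, SE; limma adjusted p = 0.069). *Rac2* had 41.2, 49.2, 50.5, 57.4 and 43.5 TPM at 24 hr, against 26.6 to 43.1 TPM in uninjured astrocytes, with replicate 1 inside the uninjured range (log2FC 0.46 ± 0.18, SE; limma adjusted p = 0.079). The *Rac1* to *Rac2* ratio was 4.50 ± 0.843 at 24 hr and 4.25 ± 0.728 in uninjured astrocytes (SD, n = 5 each; difference in log2 ratio 0.08, two-sided exact permutation p = 0.63). Relative to the median of all genes, the 24 hr log2FC of *Rac2* was -0.05, and the log2FC itself was -0.04 with size factors and -0.0058 with quantile normalization.

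**Figure D2:**
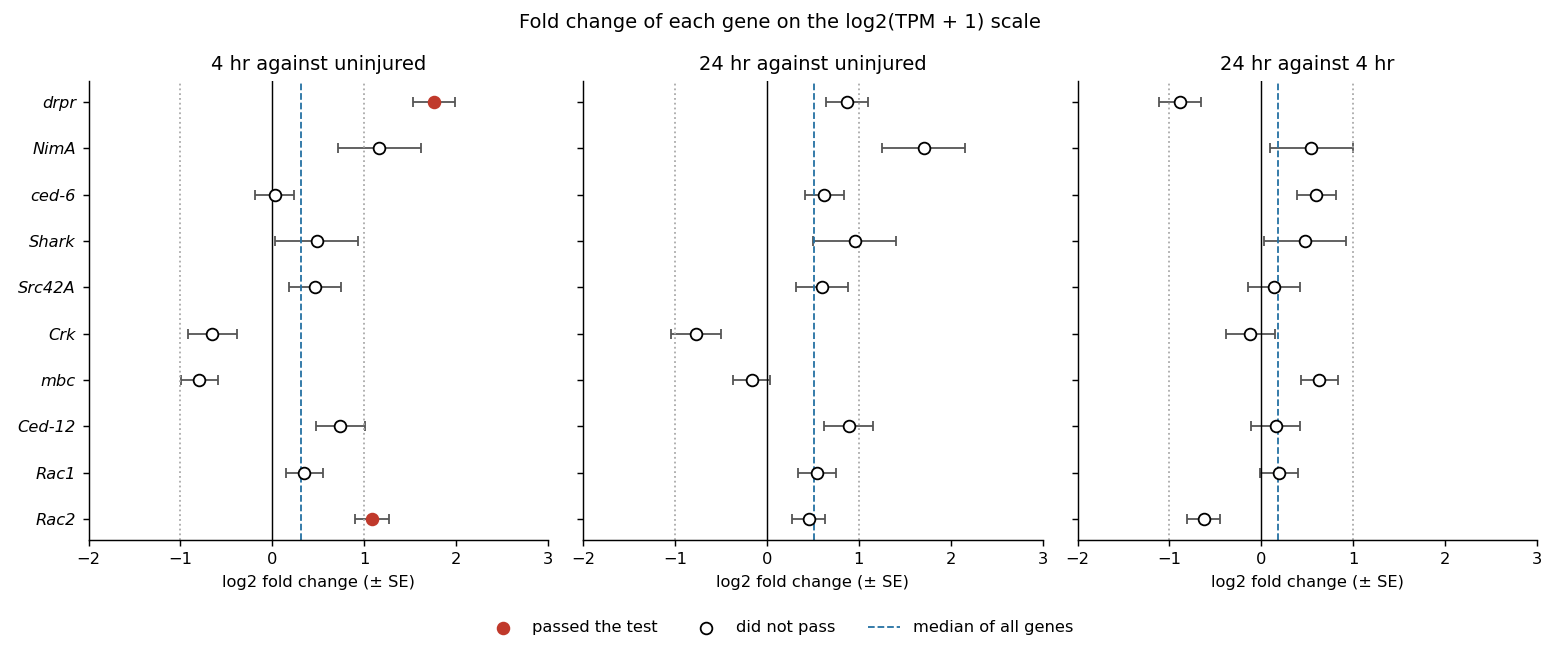
log2 fold change ± SE of each gene (horizontal axes, log2(TPM + 1) scale) for 4 hr against uninjured, 24 hr against uninjured and 24 hr against 4 hr, from limma on 15 samples. Filled points passed the test, dotted lines mark log2FC of -1 and 1, and the dashed line is the median of all 8101 genes; *drpr* and *Rac2* at 4 hr are the only filled points.

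The direct comparison of 24 hr with 4 hr asked whether the genes differed between the time points themselves. 0 of the 10 genes were called by limma, against 0.420% of all genes up and 1.58% down, or 2.00% in either direction. 4 of the 10 had an unadjusted p under 0.05, against 19.0% of all genes, and 7 of 10 values were above 0, against 64.6%. *drpr* (log2FC -0.88 ± 0.23, SE; limma adjusted p = 0.034) and *Rac2* (log2FC -0.63 ± 0.18, SE; limma adjusted p = 0.056) had every 24 hr sample below every 4 hr sample, as held for 3.63% of all genes, and no gene of the 10 had every 24 hr sample above every 4 hr sample, as held for 3.47%. For *drpr* the highest 24 hr value was 158 TPM and the lowest 4 hr value 169 TPM. With size factors *drpr* was called down at -1.04 (limma adjusted p = 0.000786). *mbc* was higher in mean at 24 hr (411 ± 110 and 259.6 ± 41.2 TPM at 24 hr and 4 hr, SD, n = 5 each; log2FC 0.63 ± 0.20, SE; limma adjusted p = 0.089), with 24 hr replicates 1 and 2 inside the 4 hr range, and so was *ced-6* (log2FC 0.60 ± 0.21, SE; limma adjusted p = 0.12). The other 6 genes had an adjusted p of 0.53 or more.

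Ratios within a sample were also compared between the time points. The *Rac1* to *Rac2* ratio was 3.32 to 5.61 at 24 hr and 2.14 to 3.07 at 4 hr, without overlap (difference in log2 ratio 0.83, two-sided exact permutation p = 0.0079, again the smallest possible). The *mbc* to *Crk* ratio was 5.65 to 7.40 at 24 hr and 2.601 to 4.80 at 4 hr, against 3.51 to 4.50 in uninjured astrocytes, so that the 24 hr samples stood above both other groups. The *ced-6* to *drpr* ratio was 3.20 to 4.57 at 24 hr and 1.13 to 1.61 at 4 hr. The 2 ratios with *mbc* and *ced-6* were chosen after the values were seen and are given without a test.

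**Figure D3:**
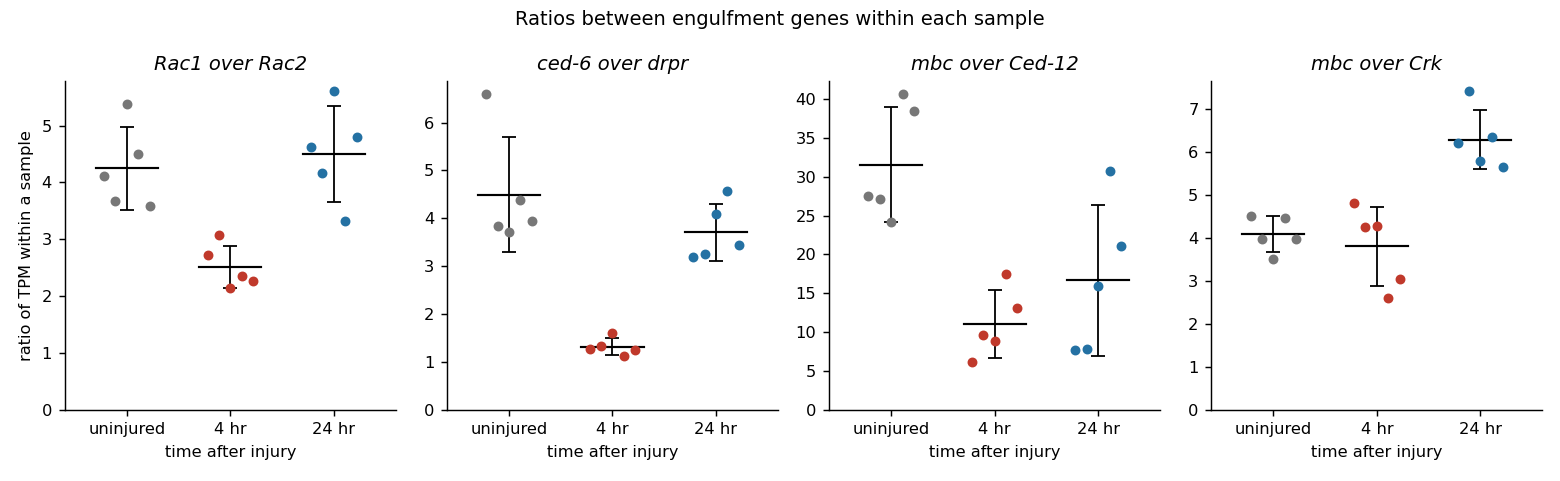
Ratio of TPM of *Rac1* to *Rac2*, *ced-6* to *drpr*, *mbc* to *Ced-12* and *mbc* to *Crk* within each sample (vertical axes, starting at 0) in astrocytes from uninjured brains and at 4 hr and 24 hr after TBI, with mean and ± SD (n = 5). The *Rac1* to *Rac2* ratio was lower at 4 hr, at 2.14 to 3.07, than in uninjured astrocytes (3.58 to 5.37) or at 24 hr (3.32 to 5.61), and the *mbc* to *Crk* ratio was highest at 24 hr.

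*drpr* was set against the median of the 8 intracellular genes as a description. In every sample but uninjured replicate 5 this median was the midpoint of *Crk* and *Rac2*, and there that of *Rac1* and *Rac2*. The difference therefore moves with those genes as well as with *drpr*, and does not describe the other intracellular genes. The log2(TPM + 1) of *drpr* minus the median of the 8 intracellular genes was 1.50 ± 0.486 at 4 hr and 0.995 ± 0.759 at 24 hr, against -0.016 ± 0.247 in uninjured astrocytes (SD, n = 5 each). All samples at 4 hr (1.03 to 2.17) were above all uninjured ones (-0.23 to 0.34), whereas the 24 hr samples (0.16 to 1.84) overlapped them. The share of a gene's variance that lay between the 3 groups was 83.6% for *Rac2* and 82.3% for *drpr*, against a median of 30.6% over all genes. For *mbc*, *Ced-12*, *NimA*, *ced-6*, *Crk* and *Rac1* it was between 37.9% and 59.4%. For the kinase genes *Src42A* and *Shark* it was 30.4% and 25.4%, close to the median gene.

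The median log2FC of all genes at 4 hr was 0.31 with TPM as deposited and 0.02 with size factors, -0.06 with quantile normalization and 0.02 with the mitochondrial genome removed. Relative to that median, the 4 hr log2FC was 1.45 for *drpr*, 0.77 for *Rac2*, 0.43 for *Ced-12*, -0.96 for *Crk* and -1.11 for *mbc*. *drpr* was called in all 27 alternatives, with a log2FC between 1.25 and 1.87 (limma adjusted p between 1.37e-05 and 0.00420), and *Rac2* in 22 of 27, with a log2FC between 0.73 and 1.18 (limma adjusted p between 0.000112 and 0.082).

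**Figure D4:**
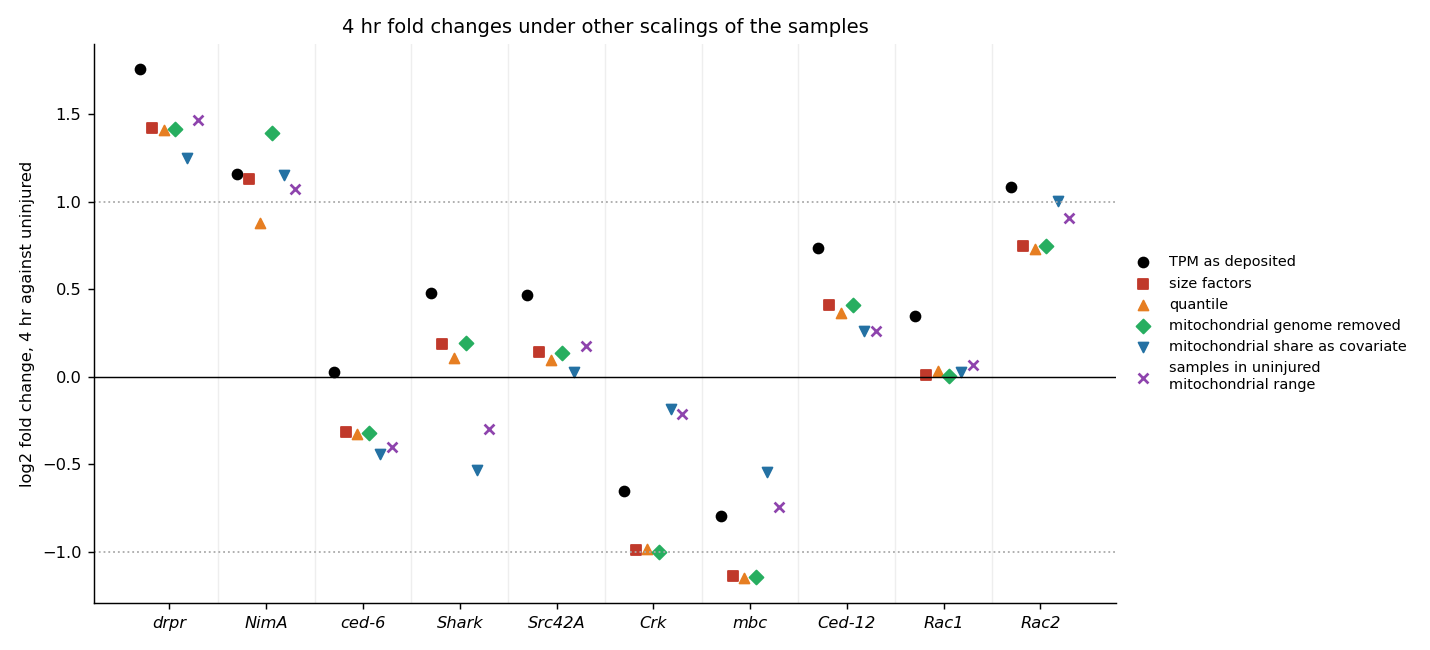
log2 fold change of the 10 genes at 4 hr against uninjured (vertical axis) with TPM as deposited and under 5 other treatments of the samples: size factors, quantile normalization, removal of the mitochondrial genome, the mitochondrial share as a covariate, and only samples whose mitochondrial share was in the uninjured range. Dotted lines mark -1 and 1; *drpr* was between 1.25 and 1.76 throughout, *Rac2* was on either side of 1, and *mbc* was beyond -1 in 3 of the 6.

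The genes whose profile over the 15 samples was most like that of *drpr* were ranked by the root mean square difference of centred log2(TPM + 1), in which a value of 0 is an identical profile. The nearest of 8100 genes was *orion*, at 0.239, followed by *AcCoAS* at 0.243, *Unc-76* and *RASSF8* at 0.245 and 0.248, and *Myc* at 0.248, against a median of 0.858 over all genes. *orion* encodes a secreted, chemokine-like protein described as a bridge between phosphatidylserine on neurites and Draper. It was at 67.5 ± 21.2 TPM at 4 hr and 41.6 ± 14.9 TPM at 24 hr, against 20.4 ± 8.59 TPM in uninjured astrocytes (SD, n = 5 each). *AcCoAS*, an acetyl-CoA synthetase gene, was at 612 ± 171 TPM at 4 hr and 437 ± 105 TPM at 24 hr, against 226 ± 42.6 TPM in uninjured astrocytes (SD, n = 5 each). Of the 9 other engulfment genes the nearest was *Rac2*, at rank 208, then *Ced-12* at 455, *Src42A* at 877 and *Rac1* at 1487. *Shark*, *ced-6* and *NimA* were at ranks 2127, 3199 and 4331. *mbc* and *Crk* were among the least alike, at ranks 7200 and 7281. All these genes share the same 15 libraries and their scaling.

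Ligands, bridging proteins and partner receptors of engulfment were followed in a list of 7 genes, of which 5 passed the filter on low values, while *NimC4*, a phosphatidylserine receptor also called SIMU, and *Itgbn*, an integrin subunit, were under 1 TPM in all samples. At 4 hr *orion* rose (67.5 ± 21.2 TPM at 4 hr and 20.4 ± 8.59 TPM in uninjured astrocytes, SD, n = 5 each; log2FC 1.73 ± 0.31, SE; limma adjusted p = 0.00104), and none fell. This was 1 of 5 called up and 0 down, against 5.76% of all genes up and 0.222% down. At 24 hr *CaBP1* rose (78.3 ± 16.3 TPM at 24 hr and 18.0 ± 9.66 TPM in uninjured astrocytes, SD, n = 5 each; log2FC 2.21 ± 0.37, SE; limma adjusted p = 0.0020), and none fell. This too was 1 of 5 up and 0 down, against 2.26% of all genes up and 0.0617% down. CaBP1 is an endoplasmic reticulum protein that can appear on the surface of dying cells and be bound by Draper. Median log2FC of the 5 genes was 0.80 at 4 hr and 1.02 at 24 hr, against 0.31 and 0.51 for all genes. Both calls were lost with the mitochondrial share as a covariate, with *orion* at 1.13 (limma adjusted p = 0.015) and *CaBP1* at 1.40 (limma adjusted p = 0.099), and in the samples of uninjured mitochondrial range, at 1.45 and 1.91 (limma adjusted p = 0.065 and 0.13). In that range, with 2 samples at each time after injury, 124 of all genes were called up at 4 hr and 2 at 24 hr.

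Of 16 signalling genes tied to Draper in glia, 15 passed the filter. At 4 hr 5 of these were called up and 0 down, against 5.76% of all genes up and 0.222% down. The study had already reported *Mmp1*, *Jra* and *kay* as raised, so this count is not independent of these data. In its astrocyte knockdowns, loss of Pvr, Jra or kay suppressed Mmp1 staining after TBI, and loss of Draper did not significantly do so. Draper knockdown flies died at a high rate, and the staining was examined in survivors. *Mmp1*, a secreted matrix metalloprotease, was at 319 TPM at 4 hr and 9.73 TPM in uninjured astrocytes on average (log2FC 5.05 ± 0.33, SE; limma adjusted p = 1.88e-08). *Jra* and *kay*, the fly Jun and Fos genes that form AP-1, were at 447 and 614 TPM at 4 hr and at 98.5 and 70.7 TPM in uninjured astrocytes, with log2FC of 2.17 ± 0.16 and 2.95 ± 0.40 (SE; limma adjusted p = 4.59e-08 and 5.74e-05). *Pi3K92E*, the catalytic PI3K subunit, which sets Draper levels in ensheathing glia, was at 61.2 TPM at 4 hr and 14.1 TPM in uninjured astrocytes, with a log2FC of 2.05 ± 0.31 (SE; limma adjusted p = 0.000156), and this call was lost in the samples of uninjured mitochondrial range (1.52, limma adjusted p = 0.041). *puc*, a phosphatase that restrains JNK and is itself a JNK target, had a log2FC of 1.01 ± 0.19 (SE; limma adjusted p = 0.0011). It was called in 17 of 27 alternatives, and not with size factors (0.68), quantile normalization (0.67), the mitochondrial genome removed (0.68), the mitochondrial share as a covariate (0.95), in the samples of uninjured mitochondrial range (0.85) or without uninjured replicate 1 or 4 or 4 hr replicate 1, 3 or 4 (0.88 to 0.9994). The kinase genes *slpr*, *msn*, *hep* and *bsk* of the JNK cascade and *Stat92E*, the transcription factor of JAK/STAT signalling, did not pass the test.

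At 24 hr 2 of the 15 were called up and 0 down, against 2.26% of all genes up and 0.0617% down. These were *Mmp1* (log2FC 2.79 ± 0.33, SE; limma adjusted p = 0.000209) and *Pi3K92E* (log2FC 1.48 ± 0.31, SE; limma adjusted p = 0.0070), the second of which was called in 13 of 27 alternatives. The 24 hr log2FC of *Pi3K92E* moved most with the mitochondrial share as a covariate, at 0.66 (limma adjusted p = 0.24), and in the samples of uninjured mitochondrial range, at 0.99 (limma adjusted p = 0.33). The call was also lost without uninjured replicate 1, 2 or 5, 4 hr replicate 3 or 24 hr replicate 1, 2 or 3 (limma adjusted p between 0.011 and 0.026) and with size factors (1.01, limma adjusted p = 0.022) or quantile normalization (0.98, limma adjusted p = 0.025). In the samples of uninjured mitochondrial range the 24 hr log2FC of *Mmp1* was 2.48 and was not called (limma adjusted p = 0.051). Between 24 hr and 4 hr *Jra* and *Mmp1* fell, with log2FC of -1.44 ± 0.16 and -2.26 ± 0.33 (SE; limma adjusted p = 2.14e-05 and 0.000433), against 1.58% of all genes called down. In the samples of uninjured mitochondrial range they were -1.44 and -2.10 and neither was called (limma adjusted p = 0.023 and 0.12). That range holds 2 samples at each time, and over all genes 1 was called up and 5 down in it. A call lost in it cannot be told apart from the effect of fewer samples. Medians for the 15 genes were 0.38 at 4 hr and 0.52 at 24 hr, against 0.31 and 0.51 for all genes. The median of this list lay near that of all genes, and its calls at 4 hr were the 2 AP-1 genes, *puc*, *Mmp1* and the PI3K subunit gene.

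The remaining Nimrod genes were nearly silent: 8 of 10 were under 1 TPM in all samples, and the single tested member, *NimC2*, was at 1.34 ± 1.85 TPM at 4 hr and 0.934 ± 1.80 TPM in uninjured astrocytes (SD, n = 5 each; limma adjusted p = 0.83). *drpr*, *NimA* and *NimC2* were the genes of this family above 1 TPM in any 24 hr sample, the last 2 at far lower levels. *Mtl*, the third Rac gene, was at 53.4 ± 10.8 TPM at 4 hr and 57.0 ± 16.6 TPM in uninjured astrocytes (SD, n = 5 each; limma adjusted p = 0.90).

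**Figure D5:**
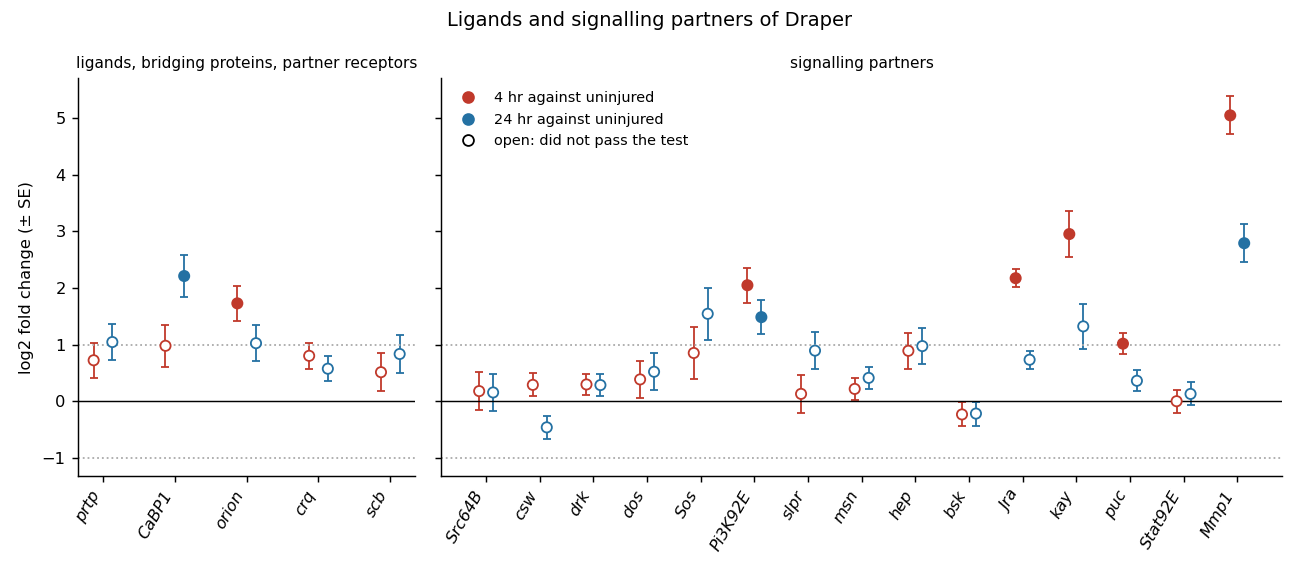
log2 fold change ± SE (vertical axis, log2(TPM + 1) scale) of the tested ligand, partner receptor and signalling partner genes at 4 hr and 24 hr against uninjured, from limma on 15 samples; filled points passed the test and dotted lines mark -1 and 1. The highest values were those of *Mmp1*, at 5.05 at 4 hr and 2.79 at 24 hr, and *orion*, *Pi3K92E*, *Jra*, *kay* and *puc* were also called up at 4 hr.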

How the data were processed

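Cells were sorted by the authors from brains of *R86E01-Gal4*/*UAS-Redstinger* flies, and cDNA was amplified by Smart-seq2 and sequenced as paired reads. Per the labels and the study's methods, reads were trimmed with Trimmomatic 0.39 and aligned to dm6, and the deposited table holds 1 TPM value per gene and sample. The submitters' processing notes also name STAR 2.6.0a, RSEM 1.3.1, HISAT2, HTSeq and DESeq2 1.30.1, and which of them gave the TPM, and how reads shared by paralogs or overlapping genes were assigned, is not given in the sources used here. All samples sum to the same TPM total, so that sequencing depth cannot be read from the table and no interval for counting error is given. Values of 0 are given as listed.

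Here log2(TPM + 1) was fitted with limma 3.58.1 (R 4.3.3, variance trend) over all 3 groups, for the 8101 genes with at least 1 TPM in at least 5 samples, with Benjamini-Hochberg adjustment over all of them. The study's thresholds were used. Because the table holds TPM and not counts, no count test was run. The *Rac1* to *Rac2* ratio was tested by exact permutation of samples over all 252 arrangements. The procedure was tested on simulated data. Named were all 10 genes, every list gene called in a comparison and the 5 genes most like *drpr*, with the marker genes beside which a result stands. The results of 1 list are not reported here. The 10 genes, the lists and the tests were chosen with earlier results of these data known. Coordinates are from the BDGP6 annotation (Ensembl release 115) and match dm6. In it 2.42% of the exonic bases of *drpr* were shared with *Oseg4*, 4.09% of *Shark* with *Lipt1*, 2.90% of *Ced-12* with *Patsas*, 5.87% of *Mmp1* with *Pof* and 2.375% of *Jra* with *RpLP0-like*. Alternatives were other pseudocounts, filters, scalings, fits and thresholds, a replicate block and each sample left out in turn.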

Additional observations from a re-analysis of the deposited data

Results flagged for a closer look

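Each of the 10 genes was examined in each of the 3 groups for a sample far from the other 4, and 3 of the 30 sets of samples stood out by Dixon's ratio at n = 5. Chance alone gives about 1 in 20. *Rac1* had 283 TPM in 24 hr replicate 3, where the other samples of the group had 191 to 209 TPM. *Rac1* also had 231 TPM in uninjured replicate 3, where the others had 120 to 140 TPM. That uninjured sample had the lowest mitochondrial share of its group, at 32.7%, and the highest *drpr*, at 83.4 TPM. *NimA* had 0.04 TPM in uninjured replicate 1 and was listed at 0 in the others, a gap that follows from the zeros.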

How the results depend on the processing

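Over the 10 genes and 3 comparisons, 773 of 807 values under an alternative kept their direction and their side of the thresholds, 5 lost a call, 5 gained one and 24 changed sign, 7 of these when 1 sample was left out. At 4 hr 2 genes were called, and 1 without uninjured replicate 4 (range 1 to 2 over the samples left out, for all calls and for those up) or with only the samples in the uninjured mitochondrial range, an alternative added after seeing the data. With size factors, quantile normalization or the mitochondrial genome removed, 1 gene was called up and 1 down. At 24 hr 1 gene, *NimA*, was called up when 2 groups were fitted alone or at an adjusted p below 0.05. Between 24 hr and 4 hr 1 gene, *drpr*, was called down with size factors. The cause was not tested.

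Values that changed sign were the following, none of them called under either setting. The 4 hr log2FC of *ced-6* was -0.31 with size factors, -0.33 with quantile normalization, -0.32 with the mitochondrial genome removed, -0.44 with the mitochondrial covariate, -0.40 in the uninjured mitochondrial range and -0.070 to 0.15 with 1 sample left out. That of *Shark*, 0.48 as reported, was -0.53 with the covariate and -0.29 in the uninjured range, and its 24 hr value, 0.95 as reported, was -0.23 with the covariate. At 24 hr *mbc* was 0.13 with the covariate and 0.15 in the uninjured range, *Rac2*, 0.46 as reported, was -0.035 with size factors and -0.0058 with quantile normalization, and *puc* was -0.13, -0.055 and -0.043 with size factors, quantile normalization and the mitochondrial genome removed. Between 24 hr and 4 hr *Src42A* was -0.020, -0.028 and -0.039 with size factors, quantile normalization and in the uninjured range, *Ced-12* was -0.0012 and -0.011 with the first 2 of these, and *Crk* was -0.30 to 0.058 with 1 sample left out.

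Samples with the same replicate number share no stated animal, day or batch, and their deviations from the group means correlated at -0.038 to 0.544, over 0.1 in 8 of 15 pairs. Pairs with different numbers correlated at -0.514 to 0.563, over 0.1 in 9 of 60, so that the highest value was not between equal numbers. Between the 4 hr and 24 hr groups, replicates 1 and 2 correlated at 0.403 to 0.563 and replicates 4 and 5 at 0.348 to 0.423. Replicates 1 and 2 of either group correlated with replicates 4 and 5 of the other at -0.514 to -0.384. With the replicate number as a block 2, 0 and 0 of the 10 genes were called in the 3 comparisons, as without it, and 547 genes rose and 27 fell at 4 hr, against 467 and 18, and 584 and 14 at 24 hr, against 183 and 5. *NimA* was not tested with a filter at 5 TPM. With depth unknown and values such as those of *NimA* near 0, small differences in low genes could not be resolved.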
